A study of Mus musculus with 8 samples.

Results

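The Cyp4a genes of the mouse encode fatty acid omega-hydroxylases, cytochrome P450 enzymes of the endoplasmic reticulum, and 6 of them were followed in kidney after exposure to bisphenol A (BPA). The members were taken by gene symbol from a deposited table of 54532 genes: Cyp4a10, Cyp4a12a, Cyp4a12b, Cyp4a14, Cyp4a31 and Cyp4a32. Each symbol matched 1 row, and all 6 had a mean of at least 0.5 FPKM (reads scaled by gene length and library size), as did 13376 genes in all, which were the genes tested. RNA with a poly(A) tail was sequenced from kidneys of ICR mice, an outbred stock, in 4 libraries after BPA and 4 after vehicle. BPA, from which polycarbonate is made, binds estrogen receptors weakly. The sources used here do not give its dose and route, the composition of the vehicle, the duration, or the age and sex of the mice. The female-expressed RNA Xist was at most 0.0304 FPKM and the Y-linked gene Ddx3y was at 11.2 to 14.5 FPKM in BPA and 10.3 to 11.8 FPKM in vehicle, levels of male tissue in all 8 libraries. The labels do not tie each library to an animal of its own, and p-values therefore cover just the sample-to-sample spread, possibly a technical one.

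These enzymes place a hydroxyl group on the terminal carbon of medium- and long-chain fatty acids, the first step towards dicarboxylic acids that peroxisomes shorten. With arachidonic acid as the substrate some of them, chiefly Cyp4a12a in male mouse kidney, form a hydroxyeicosatetraenoic acid. This product constricts renal arterioles and lowers tubular sodium transport. In kidney the transcripts are known mainly from the proximal tubule. Textbook work in mice places Cyp4a12a and its copy Cyp4a12b under androgen, and makes Cyp4a10 and Cyp4a14 classical targets of the fatty acid receptor PPAR-alpha. Cyp4a14 is also known as female-biased.

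The 6 genes lie side by side on chromosome 4 of GRCm38, from 115299046 to 115621602, a span of 323 kb that holds 13 genes and pseudogenes of the table. Cyp4a12a (chr4:115299046-115332815), Cyp4a12b (chr4:115411624-115439034), Cyp4a10 (chr4:115518264-115533649), Cyp4a31 (chr4:115563649-115579015) and Cyp4a32 (chr4:115600969-115621602) are on the plus strand. Cyp4a14 (chr4:115486200-115496142) is on the minus strand. Their longest coding transcripts in GENCODE release M21 hold 12 exons, or 13 in Cyp4a10, and 507 to 509 codons. The coding sequences of Cyp4a12a and Cyp4a12b are 98.5% identical, with 23 mismatches over 1524 bases. Those of Cyp4a10, Cyp4a31 and Cyp4a32 are 96.0 to 97.2% identical to each other, whereas Cyp4a14 shares 75.7 to 76.8% with the other members.

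The 60 coding bases around the heme-binding signature of cytochrome P450 (a PROSITE pattern that was found once in each reading frame) show the 3 kinds of sequence. Capitals mark bases that differ from Cyp4a10. Each stretch crosses a splice junction, and its outer ends are given.
Cyp4a10, chr4:115529487-115532558, plus strand: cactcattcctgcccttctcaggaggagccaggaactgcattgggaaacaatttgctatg
Cyp4a31, chr4:115574935-115577963, plus strand: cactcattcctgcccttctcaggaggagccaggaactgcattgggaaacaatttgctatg
Cyp4a32, chr4:115614865-115621461, plus strand: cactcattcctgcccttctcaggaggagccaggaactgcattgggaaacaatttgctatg
Cyp4a12a, chr4:115328971-115331861, plus strand: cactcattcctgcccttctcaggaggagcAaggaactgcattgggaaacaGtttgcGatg
Cyp4a12b, chr4:115435225-115438084, plus strand: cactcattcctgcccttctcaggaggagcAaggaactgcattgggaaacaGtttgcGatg
Cyp4a14, chr4:115487284-115489820, minus strand: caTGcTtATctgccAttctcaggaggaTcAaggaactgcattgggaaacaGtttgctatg
Cyp4a10, Cyp4a31 and Cyp4a32 had 0 differences here, as had Cyp4a12a and Cyp4a12b, and a read confined to this stretch could not be given to 1 copy. Cyp4a14 differed from Cyp4a10 at 9 positions and Cyp4a12a at 3.

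Other stretches do separate the copies. The 60-base coding window within an exon with the most differing positions is shown for each group of near-identical copies, with those positions in capitals.
Cyp4a12b, chr4:115432881-115432940, plus strand: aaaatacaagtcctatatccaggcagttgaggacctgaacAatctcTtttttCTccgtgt
Cyp4a12a, chr4:115326628-115326687, plus strand: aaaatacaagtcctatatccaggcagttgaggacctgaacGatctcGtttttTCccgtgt
Cyp4a31, chr4:115565020-115565079, plus strand: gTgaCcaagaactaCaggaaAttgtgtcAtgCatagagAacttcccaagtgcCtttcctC
Cyp4a10, chr4:115519640-115519699, plus strand: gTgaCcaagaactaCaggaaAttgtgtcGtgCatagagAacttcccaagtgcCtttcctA
Cyp4a32, chr4:115602270-115602329, plus strand: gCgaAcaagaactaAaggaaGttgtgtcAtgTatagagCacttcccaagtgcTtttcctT
Of all 150-base windows of the transcripts, 25.9% of Cyp4a12b and 25.6% of Cyp4a12a occurred letter for letter in the other copy. The share found in any other gene was 7.97% for Cyp4a32, 4.34% for Cyp4a10, 4.19% for Cyp4a31 and 0% for Cyp4a14. Shares with another gene in 100-base windows were 36.2% for Cyp4a12b, 35.8% for Cyp4a12a, 20.1% for Cyp4a32, 12.7% for Cyp4a10 and 8.22% for Cyp4a31. How the authors treated reads with several matches is not given in the sources used here. Values of Cyp4a12a and Cyp4a12b, and of Cyp4a10, Cyp4a31 and Cyp4a32, are therefore uncertain to an extent that is not known.

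**Figure D1:**
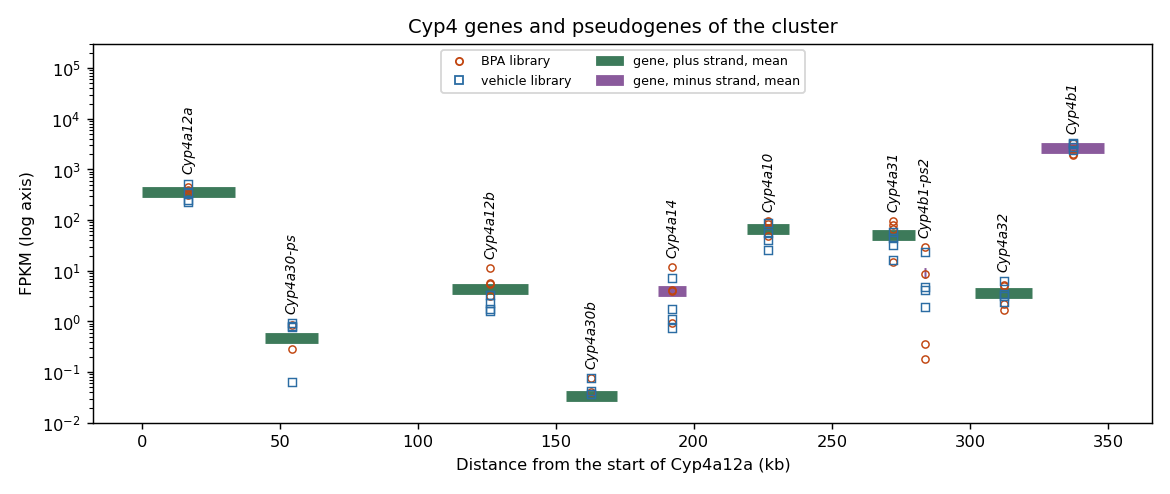
Cyp4 genes and pseudogenes of the cluster by distance from the start of Cyp4a12a (x axis, kb) and level (y axis, FPKM, log axis). Thick lines give each gene's extent and mean over 8 libraries, circles are BPA and squares vehicle libraries; values of 0 are not drawn. Cyp4a12a and Cyp4b1 stand above the other genes, and Cyp4a12b, Cyp4a14 and Cyp4a32 lie near 4 FPKM.

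Reads recovered from the FPKM values numbered 15944081 to 17351540 per library. The kidney label was checked on marker genes: 10 proximal tubule markers, such as the endocytic receptor Lrp2, summed to 2965 to 4031 FPKM in BPA and 3283 to 3715 FPKM in vehicle. The 6 liver markers, relevant because Cyp4a genes are also hepatic, summed to 2.71 to 11.3 FPKM in BPA and 3.43 to 5.51 FPKM in vehicle. Their most abundant gene, Alb, was at 8.46, 2.40, 7.32 and 10.5 FPKM in BPA and 1.84, 4.23, 2.32 and 3.32 FPKM in vehicle, and its part in the Cyp4a values was not tested. BPA replicate 4 stood apart with 17174 genes above 0, against 19090 to 20845 in the other libraries. Mitochondrial genes took 9.85, 9.81, 9.66 and 14.2% of reads in BPA and 7.02, 8.33, 7.11 and 7.19% in vehicle, so the groups did not overlap. Vehicle replicate 4 held skeletal muscle transcripts (195 FPKM over 4 markers, at most 0.306 FPKM elsewhere) and the most fat transcripts (253 FPKM over 6 markers). Replicates 3 and 4 of both groups had low Arntl (0.106 and 0.185 FPKM in BPA, 0.55 and 0.337 FPKM in vehicle), the gene of the clock activator BMAL1. Replicates 1 and 2 had 3.17 and 2.22 FPKM in BPA, and 4.27 and 3.76 FPKM in vehicle. Dbp, a clock output gene, ran the other way, with 44.2 and 22.4 FPKM in BPA replicates 3 and 4 and 31.6 and 30.7 FPKM in those of vehicle.

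None of the 6 Cyp4a genes passed the test of BPA against vehicle, limma on log2(FPKM + 1) with p-values adjusted over all 13376 genes, called under 0.05. Over all genes the called share was 0.00748%, 1 gene that was lower. The smallest p belonged to Cyp4a12b (log2 change 1.10, SE 0.306, 95% interval 0.41 to 1.80, unadjusted p = 0.00588 and adjusted p = 0.365 by limma). An unadjusted p under 0.05 with a higher level in BPA was reached by 1 of 6 members and by 4.18% of all genes. With limma-voom on the recovered reads no member passed either. The groups did not separate for any member, whereas all 4 BPA libraries lay above all vehicle libraries in 3.23% of genes and below them in 4.66%. The estimate was positive in 5 of 6 members and in 48% of all genes, with a median log2 change of 0.65 over the members and -0.01 over all genes. The 6 members are not independent counts. Near-identical copies may share reads, and Cyp4a14 varied with Cyp4a31 and Cyp4a10 over the libraries (Pearson 0.84 and 0.79). The mitochondrial share of reads, 9.66 to 14.2% in BPA and 7.02 to 8.33% in vehicle, moved with the groups, and its part in these changes was not tested. In bulk tissue, a change in the number of cells of a type and in the RNA per cell cannot be told apart.

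**Figure D2:**
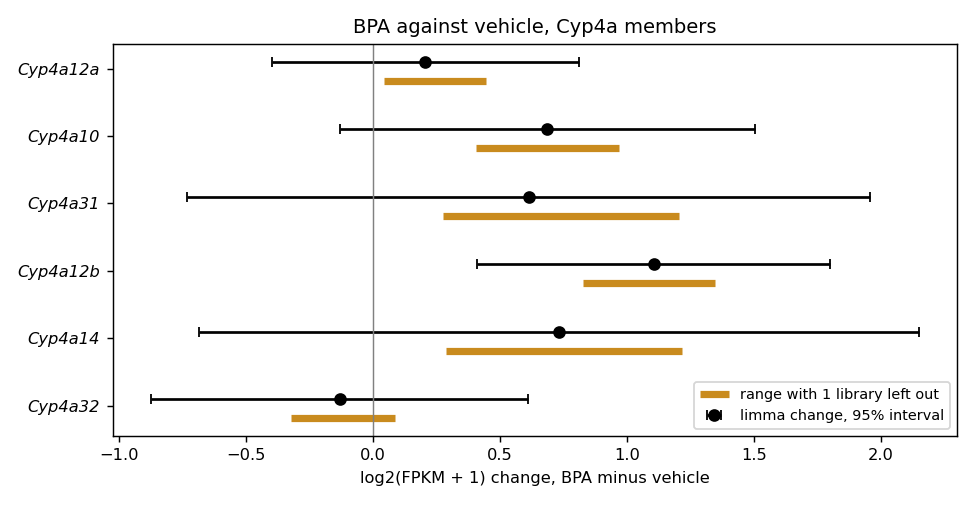
Change of each Cyp4a gene, BPA minus vehicle, on the log2(FPKM + 1) scale (x axis). Points and thin bars are limma estimates with 95% intervals, and thick bars the range of the estimate with 1 of the 8 libraries left out; the Cyp4a12b interval (0.41 to 1.80) is the 1 that stays above 0, and no gene passed after adjustment.

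Levels per gene length differed by up to 96.6-fold between the means of the members. Cyp4a12a was the most abundant in 8 of 8 libraries, at 2.86 to 20.1 times the FPKM of Cyp4a10. Cyp4a10 and Cyp4a31 came next and were not ordered, since Cyp4a10 was above Cyp4a31 in 5 of 8 libraries. Each was above the low members Cyp4a12b, Cyp4a14 and Cyp4a32 in 8 of 8. Among those 3 the order changed from library to library, with Cyp4a12b above Cyp4a14 in 6 and above Cyp4a32 in 3. The sum of the 6 was 533 ± 89.2 FPKM in BPA and 438 ± 120 FPKM in vehicle (SD, n = 4 each), of which Cyp4a12a held 63.8 to 84.0% in BPA and 61.3 to 88.5% in vehicle.

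Cyp4a12a, in mice the main arachidonic acid omega-hydroxylase of the male kidney, was at 457, 309, 385 and 344 FPKM in BPA replicates 1 to 4. In vehicle replicates 1 to 4 it was at 350, 229, 248 and 529 FPKM. The lowest and the highest library were both vehicle, and the groups overlapped. The means were 374 ± 63.4 FPKM in BPA and 339 ± 137 FPKM in vehicle (log2 change 0.21, 95% interval -0.40 to 0.81, limma adjusted p = 0.769). The highest value came from the library with muscle and fat transcripts, vehicle replicate 4, and without it the log2 change was 0.45 (limma adjusted p = 0.630). Without vehicle replicate 2, the lowest library, the change was 0.04.

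Its copy Cyp4a12b was at 11.4, 5.46, 3.18 and 5.79 FPKM in BPA and at 2.35, 1.80, 1.65 and 3.27 FPKM in vehicle. All 4 BPA libraries were above the vehicle mean, and the groups overlapped only in that BPA replicate 3 was below vehicle replicate 4. The means were 6.45 ± 3.47 FPKM in BPA and 2.27 ± 0.734 FPKM in vehicle, from 124 to 472 reads per BPA library and 61 to 136 reads per vehicle library. The estimate was positive with any single library left out. It was lowest, 0.82, without BPA replicate 1 and highest, 1.35, without BPA replicate 3 (limma adjusted p = 0.351 to 0.589 over these fits). Cyp4a12b held 2.43, 1.74, 0.819 and 1.65% of the summed FPKM of the 2 copies in BPA and 0.666, 0.778, 0.658 and 0.615% in vehicle. For this share the groups did not overlap, and no such value over all genes was computed to set beside it. It was picked from several shares because of its values and was not tested. The Cyp4a12b share of the 6 members rests on the same reads. It was 0.694 to 1.72% in BPA and 0.406 to 0.582% in vehicle. When the copies were summed into 1 row, to allow for reads divided between them, the log2 change was 0.22 (limma adjusted p = 0.752), close to that of Cyp4a12a, which supplies nearly all of the sum.

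**Figure D3:**
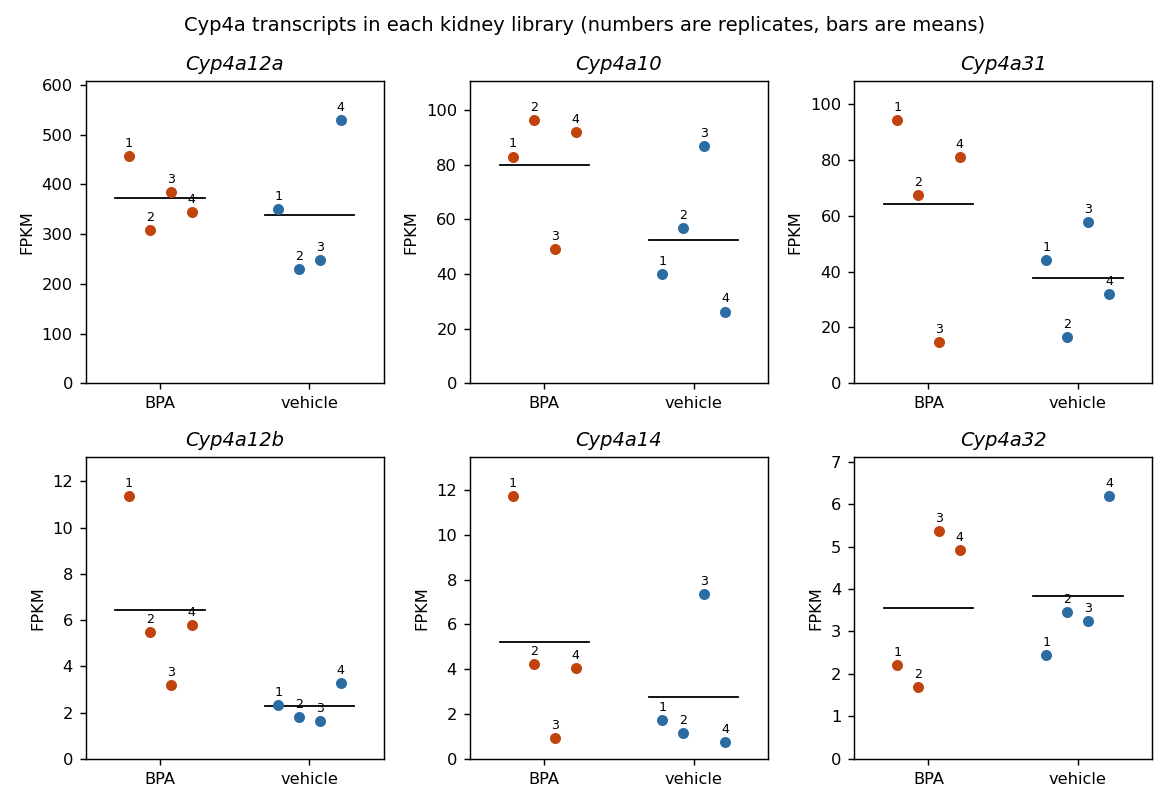
FPKM of the 6 Cyp4a genes (y axes, each from 0) in BPA and vehicle libraries, with points numbered by replicate and bars at group means. BPA replicate 3 is the lowest BPA library for Cyp4a10, Cyp4a31, Cyp4a12b and Cyp4a14, and vehicle replicate 3 is the highest vehicle library for Cyp4a10, Cyp4a31 and Cyp4a14.

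Cyp4a10, which PPAR-alpha ligands and fasting induce in mice, was at 83.0, 96.3, 49.0 and 92.1 FPKM in BPA and 40.0, 56.9, 86.9 and 26.3 FPKM in vehicle. The groups overlapped: vehicle replicate 3 exceeded BPA replicates 1 and 3, and BPA replicate 3 lay below vehicle replicate 2 as well. The means were 80.1 ± 21.5 FPKM in BPA and 52.5 ± 26.1 FPKM in vehicle (log2 change 0.69, 95% interval -0.13 to 1.503, limma adjusted p = 0.494). The estimate was 0.97 without vehicle replicate 3 and 0.41 without vehicle replicate 4. Cyp4a31, a close copy of Cyp4a10, was at 94.2, 67.5, 14.7 and 81.1 FPKM in BPA and 44.2, 16.5, 57.9 and 32.01 FPKM in vehicle. BPA held its 3 highest libraries and also its lowest, replicate 3. The means were 64.4 ± 34.9 FPKM in BPA and 37.7 ± 17.6 FPKM in vehicle (log2 change 0.61, 95% interval -0.73 to 1.96, adjusted p = 0.686), and without BPA replicate 3 the change was 1.205 (unadjusted p = 0.0142, adjusted p = 0.448 by limma). Omitting vehicle replicate 2 gave 0.28, and omitting BPA replicate 1 gave 0.34. Cyp4a31 held 14.3, 13.9 and 15.2% of the family's FPKM in BPA replicates 1, 2 and 4, and 3.21% in BPA replicate 3.

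The third copy, Cyp4a32, was at 2.21, 1.70, 5.36 and 4.92 FPKM in BPA and 2.45, 3.46, 3.24 and 6.19 FPKM in vehicle. Replicates 3 and 4 were its high libraries in BPA, and replicate 4 its highest in vehicle. The log2 change was -0.13 (95% interval -0.87 to 0.61, limma adjusted p = 0.884), on means of 3.55 ± 1.86 FPKM in BPA and 3.83 ± 1.63 FPKM in vehicle. The listed length of Cyp4a32, 1536 bases, is nearly its coding length of 1527 bases, while the other members' models include untranslated sequence. Summed into 1 row, Cyp4a10, Cyp4a31 and Cyp4a32 were at 179, 165, 69.1 and 178 FPKM in BPA and 86.7, 76.8, 148 and 64.5 FPKM in vehicle (log2 change 0.63, limma adjusted p = 0.516). In this sum too, BPA replicate 3 lay among the vehicle libraries and vehicle replicate 3 stood above the other vehicle libraries.

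Cyp4a14, the member of the family that PPAR-alpha activation is best known to induce from a low base, varied most between libraries. It was at 11.7, 4.21, 0.944 and 4.07 FPKM in BPA and 1.74, 1.14, 7.35 and 0.753 FPKM in vehicle, a 15.6-fold range. BPA replicate 1 and vehicle replicate 3 were the highest, and BPA replicate 3 was below all vehicle libraries but replicate 4. The range was wider than counting error: BPA replicate 1 had 529 reads (95% Poisson interval 485 to 576) and vehicle replicate 4 had 34 (23.5 to 47.5), intervals that cover counting error only. The means were 5.24 ± 4.58 FPKM in BPA and 2.75 ± 3.10 FPKM in vehicle (log2 change 0.73, 95% interval -0.69 to 2.15, limma adjusted p = 0.645). Omitting BPA replicate 1 gave 0.29 and omitting BPA replicate 3 gave 1.19. Omitting vehicle replicate 4 gave 0.47, omitting vehicle replicate 3 gave 1.22, and library weights gave 1.28 (adjusted p = 0.393). The within-group SD on the log2 scale was 1.06 for Cyp4a14 and 1.003 for Cyp4a31, larger than in 98.6% and 98.3% of tested genes, whose median was 0.22. For the other members it was 0.42 to 0.60, above 84.1 to 92.8% of tested genes.

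**Figure D4:**
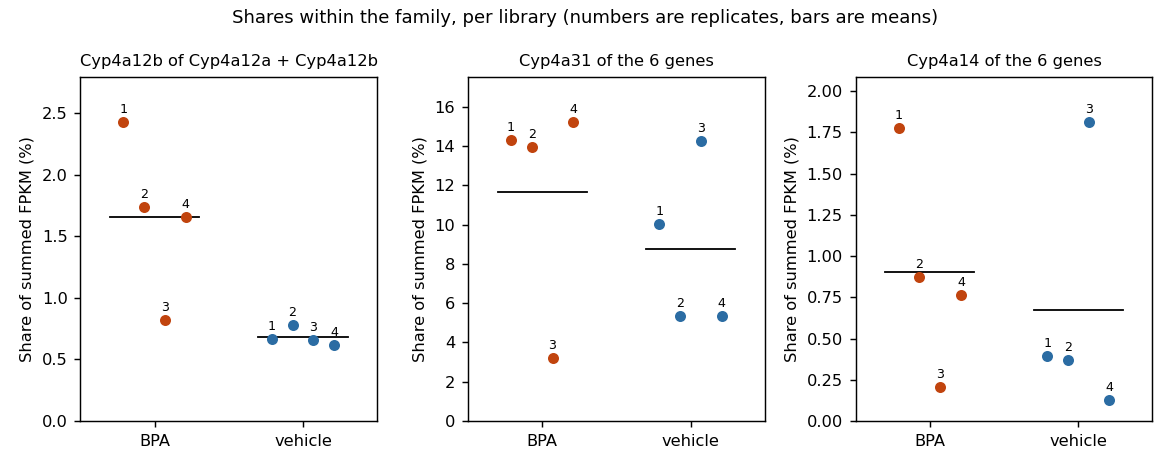
Shares of summed FPKM (y axes, percent, from 0) in BPA and vehicle libraries, with points numbered by replicate and bars at group means. The Cyp4a12b share of the 2 copies, picked because of its values and not tested, is 0.819 to 2.43% in BPA and 0.615 to 0.778% in vehicle. The Cyp4a31 and Cyp4a14 shares of the family overlap between the groups.

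How the members varied together over the 8 libraries is given as a description with no test. On log2(FPKM + 1), Cyp4a14 and Cyp4a31 had a Pearson correlation of 0.84 (Spearman 0.83, and Pearson 0.81 once group means were removed). Cyp4a14 and Cyp4a10 had 0.79 (Spearman 0.71, Pearson 0.76 without group means). Cyp4a10 and Cyp4a31 had 0.59 (Spearman 0.64, Pearson 0.52 without group means), or 0.94 without vehicle replicates 1 and 4, the libraries farthest from the Cyp4a10 median. Cyp4a12b had 0.63 with Cyp4a31 (0.63 without group means, 0.26 without BPA replicates 1 and 4). With Cyp4a14 it had 0.56 (0.46 without group means, -0.06 without those libraries). With Cyp4a10 it had 0.40, which was -0.07 without group means. Cyp4a12a had -0.48 with Cyp4a10, which was -0.78 without group means and 0.05 without vehicle replicates 1 and 4. Its values were -0.09 with Cyp4a14 and 0.16 with Cyp4a31. Cyp4a12a and Cyp4a12b had 0.56. Cyp4a32 had negative values with Cyp4a10 (-0.52), Cyp4a14 (-0.58) and Cyp4a31 (-0.49). The points share libraries and their scaling, and near-identical copies may share reads.

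The tested gene most like Cyp4a14 was Ehhadh, which encodes the peroxisomal bifunctional enzyme that shortens dicarboxylic acids and is itself a PPAR-alpha target. Its Pearson correlation with Cyp4a14 was 0.98 over the 8 libraries, and 0.96 without vehicle replicate 3 and BPA replicate 1. Its level ranked the 8 libraries in the same order as Cyp4a14 (Spearman 1), over a narrow range: 382, 361, 295 and 334 FPKM in BPA and 313, 303, 361 and 293 FPKM in vehicle. Ehhadh did not pass the test (log2 change 0.11, limma adjusted p = 0.747). Over all 40 tested PPAR-alpha targets, Ehhadh among them, the median Pearson correlation with Cyp4a14 was 0.14, and 27 were above 0, against 48.8% of all genes. With Cyp4a10 the median was -0.03, and 19 of the 40 were above 0, against 48.0% of all genes. For the remaining members the median ran from -0.10 (Cyp4a12b, 14 above 0) to 0.08 (Cyp4a12a, 22 above 0). Next to Ehhadh came the cytokinesis factor Ect2 (Pearson 0.95), the adaptor subunit Ap3s1 (0.91), Fam131c (0.90) and the immunoglobulin segment Ighv1-76 (0.90). For Cyp4a12b the most alike gene was Fmo5, a flavin-containing monooxygenase, with a Pearson correlation of 0.97 (0.95 without BPA replicates 1 and 4). Fmo5 was at 21.3, 16.1, 7.18 and 15.3 FPKM in BPA and 7.08, 5.54, 4.58 and 7.22 FPKM in vehicle (log2 change 1.10, adjusted p = 0.355), so its groups overlapped in the same libraries. The polymerase subunit Twistnb (0.95), Eid1 (0.93), the calcium channel Tmco1 (0.92) and Fam199x (0.92) followed.

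**Figure D5:**
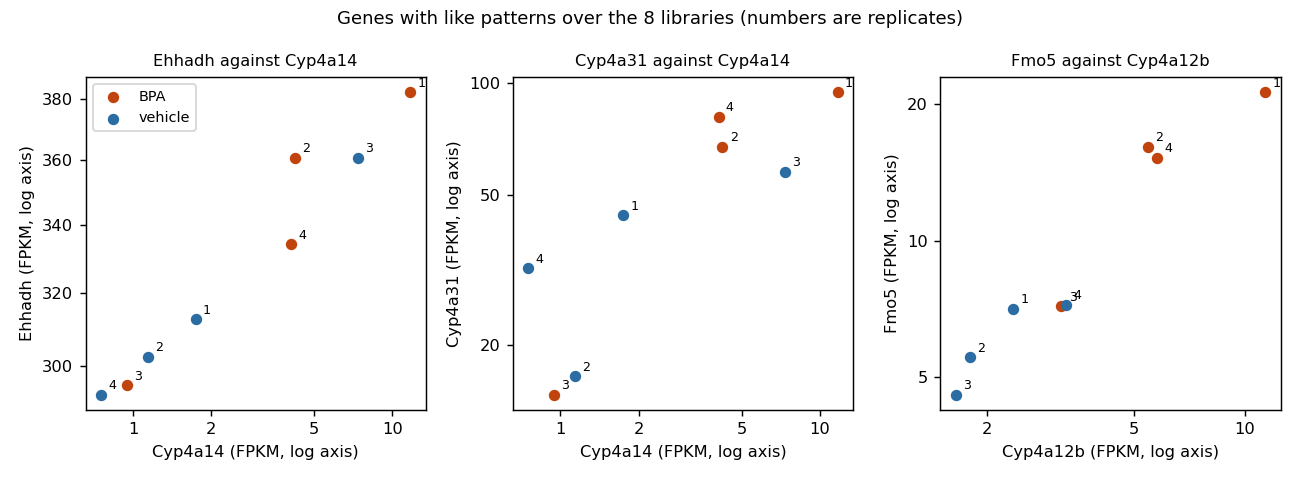
Level of Ehhadh and Cyp4a31 against Cyp4a14, and of Fmo5 against Cyp4a12b, in FPKM on log axes, with 1 point per library numbered by replicate. Ehhadh ranks the libraries in the same order as Cyp4a14, from 293 FPKM in vehicle replicate 4 to 382 FPKM in BPA replicate 1.

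The other members had different companions. Cyp4a12a was most like Mfsd13a (Pearson 0.97), followed by its relative Cyp4v3 (0.90), Taf11 (0.90), Synpr (0.88) and Gas2 (0.87). Cyp4a10 was most like Tmem207 (0.96), Mcoln3 (0.95), Spryd7 (0.94), the caveolin Cav2 (0.94) and Id4 (0.94), and for Tmem207 the value was 0.84 without vehicle replicates 1 and 4. Cyp4a31 was most like Tmem35a (0.93), Phospho2 (0.93), the class I gene H2-T10 (0.92), Plekhb1 (0.90) and Pdik1l (0.89). Cyp4a32 was most like the kinase gene Riok3 (0.98), the histone methyltransferase Nsd3 (0.97), Selenoo (0.96) and Rlf (0.96). These genes were picked from 13376 for their likeness over 8 libraries, and the values are given as a description.

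Clock genes divided replicates 1 and 2 from 3 and 4, and so did the sums of the proximal tubule and endothelial markers, in opposite directions. The sums of the other kidney marker sets did not divide them in both groups. Among single proximal tubule markers, Slc34a1, Slc22a6, Cubn and Slc13a3 divided them in both groups, and the others did not. Gatm ran the other way in vehicle, with 241 and 323 FPKM in replicates 1 and 2 and 97.5 and 99.0 FPKM in replicates 3 and 4. In BPA replicates 1 to 4 the 10 proximal tubule markers summed to 3016, 2965, 4031 and 3677 FPKM. In vehicle replicates 1 to 4 they summed to 3310, 3283, 3715 and 3497 FPKM. The 3 endothelial markers summed to 19.5 and 22.6 FPKM in BPA replicates 1 and 2 and to 9.37 and 12.2 FPKM in BPA replicates 3 and 4. In vehicle they summed to 16.2 and 18.3 FPKM in replicates 1 and 2 and to 4.57 and 5.87 FPKM in replicates 3 and 4. The 3 podocyte markers summed to 39.3, 51.0, 28.9 and 48.7 FPKM in BPA and 42.4, 44.2, 12.1 and 10.05 FPKM in vehicle, low in the same vehicle libraries. Changes were therefore also taken within each subset, which are not groups of the study, and the part of these markers in them was not tested. Within replicates 1 and 2 the log2 change was 1.75 for Cyp4a14, 1.55 for Cyp4a12b, 1.52 for Cyp4a31, 0.89 for Cyp4a10 and 0.40 for Cyp4a12a. Within replicates 3 and 4 it was -0.29 for Cyp4a14 and -0.30 for Cyp4a31, the reverse sign, while Cyp4a12b had 0.66, Cyp4a10 had 0.48 and Cyp4a12a had 0.01. Cyp4a32 had -0.41 within replicates 1 and 2 and 0.15 within replicates 3 and 4. No member passed limma's test in either subset (smallest adjusted p = 0.347 and 0.485). The difference between the subsets was not tested.

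Other Cyp4 genes were compared from a list of 17, of which 6 were tested and 0 passed limma's test, 3 higher and 3 lower in BPA. Their median log2 change was -0.06, and 1 had an unadjusted p under 0.05, as had 11% of all genes. Cyp4b1, the neighbour of Cyp4a32 and an androgen-induced renal hydroxylase in mice, was at 2459 ± 630 FPKM in BPA and 2910 ± 412 FPKM in vehicle (limma adjusted p = 0.614). Cyp4f16 was at 1.81 ± 0.159 FPKM in BPA and 1.06 ± 0.316 FPKM in vehicle, without overlap, as in 3.23% of all genes (log2 change 0.46, adjusted p = 0.365). Cyp4f13 (8.002 ± 0.810 FPKM in BPA, 9.25 ± 1.29 FPKM in vehicle), Cyp4f17 (4.30 ± 0.714 FPKM in BPA and 4.17 ± 1.30 FPKM in vehicle) and Cyp4v3 (1.01 ± 0.0556 FPKM in BPA and 0.905 ± 0.262 FPKM in vehicle) overlapped between the groups. The pseudogene Cyp4b1-ps2, which lies between Cyp4a31 and Cyp4a32, was at 8.65, 30.1, 0.184 and 0.363 FPKM in BPA and 23.3, 4.70, 4.27 and 1.90 FPKM in vehicle. Cyp4a29, which lies before Cyp4a12a, was at 0 in all 8 libraries.

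The receptor that drives Cyp4a10 and Cyp4a14 and its other targets were compared by counts. Ppara was at 5.48, 5.68, 8.63 and 16.7 FPKM in BPA and 7.02, 9.79, 6.42 and 8.21 FPKM in vehicle, highest in BPA replicate 4 (log2 change 0.08, limma adjusted p = 0.929). Of 13 tested genes of PPAR-alpha and its partners, 0 passed limma's test, and 2 had an unadjusted p under 0.05, as had 11% of all genes. These 2 were the dimer partner Rxrb (7.42 ± 1.23 FPKM in BPA, 10.5 ± 1.21 FPKM in vehicle, adjusted p = 0.365) and the coactivator Ppargc1a (9.497 ± 1.43 FPKM in BPA and 6.80 ± 1.10 FPKM in vehicle, adjusted p = 0.374). Groups did not overlap for Rxrb, lower in BPA as in 4.66% of all genes, or for Ppargc1a, higher as in 3.23%. Of 40 tested PPAR-alpha targets outside the family, 0 passed; 16 were higher and 24 lower, and the median log2 change was -0.08, against -0.01 over all genes. An unadjusted p under 0.05 was reached by 0 as higher and 4 as lower, against 4.18% and 6.83% of all genes. Angptl4, an inhibitor of lipoprotein lipase, was at 4.81 ± 2.34 FPKM in BPA and 11.01 ± 4.83 FPKM in vehicle (log2 change -1.05, adjusted p = 0.374), and its highest value, 17.98 FPKM, was in vehicle replicate 4, the library rich in fat transcripts; the part of these in its level was not tested. Mlycd, malonyl-CoA decarboxylase, was at 24.7 ± 3.68 FPKM in BPA and 34.9 ± 6.91 FPKM in vehicle (adjusted p = 0.387). The Mlycd groups did not overlap, with BPA lower, as in 4.66% of all genes.

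Genes around the hydroxylation step gave 0 calls as well. Among 27 tested genes of dicarboxylic acid and peroxisomal oxidation, a list that shares members with the PPAR-alpha targets, 9 were higher and 18 lower (median log2 change -0.06). In this list an unadjusted p under 0.05 was reached by 4, all lower, against 4.18% of all genes as higher and 6.83% as lower. Its smallest p belonged to the alcohol dehydrogenase Adh7 (1.03 ± 0.193 FPKM in BPA, 1.70 ± 0.362 FPKM in vehicle, limma adjusted p = 0.374) and the peroxisomal thioesterase Acot8 (6.37 ± 1.94 FPKM in BPA and 9.04 ± 0.582 FPKM in vehicle, adjusted p = 0.429). The Adh7 groups did not overlap, with BPA lower, as in 4.66% of all genes. Of 22 tested enzymes of arachidonate release and other eicosanoids, 13 were higher and 9 lower (median log2 change 0.07), and 2 in each direction had an unadjusted p under 0.05, as had 4.18% of all genes as higher and 6.83% as lower. Hpgd, which inactivates prostaglandins, was at 8.36 ± 1.76 FPKM in BPA and 4.13 ± 1.38 FPKM in vehicle (log2 change 0.90, limma adjusted p = 0.355). Its groups did not overlap, with BPA higher, as in 3.23% of all genes. The leukotriene synthase Ltc4s was at 0.958 ± 0.303 FPKM in BPA and 1.88 ± 0.584 FPKM in vehicle (limma adjusted p = 0.385). Gpr75, the receptor reported for the hydroxyeicosatetraenoic acid formed chiefly by Cyp4a12a, was too low to test. It was at 0 to 0.587 FPKM in BPA and 0.149 to 0.236 FPKM in vehicle. Among 16 genes of P450 electron supply and heme, 5 were higher and 11 lower (median log2 change -0.17). Of these, 2 had an unadjusted p under 0.05, both lower, against 4.18% of all genes as higher and 6.83% as lower. The 2 were Alas1, the rate-limiting enzyme of heme synthesis (20.8 ± 7.40 FPKM in BPA and 32.1 ± 6.16 FPKM in vehicle, adjusted p = 0.427), and the heme pathway oxidase Ppox (2.09 ± 0.556 FPKM in BPA and 2.90 ± 0.353 FPKM in vehicle, adjusted p = 0.445).

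Hormone-linked and clock genes were counted because the family is known to depend on them. Of 13 tested androgen-driven kidney genes, 7 were higher and 6 lower (median log2 change 0.0043), and none passed limma's test. Of the 13, 0 had an unadjusted p under 0.05, against 11% of all genes. The smallest p belonged to the transporter Slc22a28 (119 ± 7.32 FPKM in BPA, 101 ± 14.7 FPKM in vehicle, limma adjusted p = 0.496), then the hydroxylase Cyp7b1 (73.5 ± 55.8 FPKM in BPA and 40.6 ± 33.6 FPKM in vehicle, adjusted p = 0.609). Of 5 female-biased genes 3 were tested and 3 were higher in BPA, as were 48% of all genes. None passed, and 2 had an unadjusted p under 0.05, as had 4.18% of all genes as higher. The retinaldehyde dehydrogenase Aldh1a1 was at 6.47 ± 3.31 FPKM in BPA and 0.681 ± 0.232 FPKM in vehicle (limma adjusted p = 0.218). Its groups did not overlap, with BPA higher, as in 3.23% of all genes. The transporter Slc22a29 was at 1.00004 ± 0.442 FPKM in BPA and 0.418 ± 0.184 FPKM in vehicle (limma adjusted p = 0.425). Among 18 tested clock genes, 9 were higher and 9 lower (median log2 change -0.0023), and 0 passed. Of the 18, 1 higher and 3 lower had an unadjusted p under 0.05, against 4.18% and 6.83% of all genes. Among the clock genes with the smallest p was the repressor Cry1 (0.926 ± 0.341 FPKM in BPA, 3.501 ± 1.26 FPKM in vehicle, adjusted p = 0.271).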

How the data were processed

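Polyadenylated RNA of 8 mouse kidney libraries was analysed from the FPKM values per gene that the authors made from their reads and deposited, with gene lengths and GRCm38 coordinates. The submitters' processing notes name DESeq2 1.20.0 and the build GRCm38 without saying what each was used for. The aligner and counter were not given in the sources used here. Columns named for BPA match the BPA libraries. The remaining columns, C1 to C4, were assigned to vehicle because no further group exists, and their numbers served as replicate numbers.

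Whole reads were recovered by multiplying FPKM by gene length: 100% of low values, up to 20 reads, came out whole within 0.01 reads. Genes with a mean of at least 0.5 FPKM were tested with limma 3.58.1 (R 4.3.3) on log2(FPKM + 1). The variance was trended and robust, with no covariate and Benjamini-Hochberg adjustment over all 13376. Fold changes on this scale understate low genes. The fit was tested on simulated data. Transcripts came from GENCODE M21, whose coordinates of the 6 genes equal those deposited; Biopython 1.88 aligned coding sequences, and counts of shared windows considered exact matches on the transcript strand. Tables and plots were made in Python 3.11.15 (pandas 2.3.3, numpy 2.4.6, matplotlib 3.10.9).

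Members and gene lists were chosen with earlier results of these data known. All members and tested Cyp4 genes were named; in each list up to 4 called genes, or otherwise the 2 with the smallest p; for each member the 5 genes with the highest Pearson correlation, leaving out clone names and predicted genes. Of the genes so chosen, some are not reported here. Alternatives were other pseudocounts (0.1 and 0.5), filters and scalings, protein-coding genes alone, library weights, a plain variance, limma-voom on recovered reads, a replicate block, near-identical copies summed, libraries left out, and replicates 1 and 2 or 3 and 4 alone.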

Additional observations from a re-analysis of the deposited data

Results flagged for a closer look

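In vehicle, Cyp4a14 was at 7.35 FPKM in replicate 3, far from 0.753 to 1.74 FPKM in the other vehicle libraries. The same library stood apart for the share of Cyp4a14 in the family's summed FPKM, 1.81% against 0.126 to 0.395%. In BPA, the share of Cyp4a31 was 3.21% in replicate 3, far below 13.9 to 15.2% in the other BPA libraries. The gap to the nearest library was 0.850, 0.841 and 0.893 of the group's range in these 3 cases. These ratios lie above Dixon's 95% critical value for 4 libraries, which chance passes in about 1 of 20 groups. They were taken on unlogged FPKM and percent, not on the log2(FPKM + 1) scale of the tests. The first 2 cases rest on the same Cyp4a14 value. In all, 32 groups were examined. The values rest on 296 reads of Cyp4a14 in vehicle replicate 3 and 601 reads of Cyp4a31 in BPA replicate 3.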

How the results depend on the processing

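No Cyp4a gene was called under any alternative (130 values of single members, adjusted p = 0.162 or more), and 124 kept the direction. Cyp4a10, Cyp4a12a and Cyp4a12b kept a positive change in every alternative run. The change of Cyp4a32 reversed to 0.15 within replicates 3 and 4, where Cyp4a14 (-0.29) and Cyp4a31 (-0.30) reversed too. For Cyp4a14 and Cyp4a31, BPA was below vehicle in replicate 3 and above it in replicate 4. The cause of these reversals was not tested. With 1 library left out, the log2 change ran from 0.41 to 0.97 for Cyp4a10, 0.04 to 0.45 for Cyp4a12a and 0.82 to 1.35 for Cyp4a12b. It ran from 0.29 to 1.22 for Cyp4a14, 0.28 to 1.205 for Cyp4a31 and -0.32 to 0.088 for Cyp4a32. The estimate for Cyp4a32 was positive without BPA replicate 2 (0.088), without vehicle replicate 4 (0.08) or without BPA replicate 1 (0.0036). Summing copies gives no value for a single copy; the sums, 0.22 for Cyp4a12a with Cyp4a12b and 0.63 for Cyp4a10 with Cyp4a31 and Cyp4a32, were not called. At a mean of at least 5 FPKM, Cyp4a12b, Cyp4a14 and Cyp4a32 were not tested.

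The number of genes called, 1, became 0 with protein-coding genes alone, limma-voom or the replicate block (1349, 1516 and 1376 genes with an unadjusted p under 0.05), 8 with library weights, 2 within replicates 1 and 2 and 0 within replicates 3 and 4 (1524). It ran from 0 to 4 with 1 library left out, and was 0 when BPA replicate 2 (1685), or replicate 1 (1167) or 3 (1099) of vehicle, was omitted. The replicate numbers were not taken to pair the libraries, because deviations of same-numbered libraries correlated by -0.03 to 0.14. These correlations do not address the division of replicates 1 and 2 from 3 and 4 in clock genes. The main fit had no covariate for that division. Under the replicate block Cyp4a12b had a limma adjusted p of 0.412. Leaving out both replicates 4, chosen after seeing the data, left 1 gene called and no Cyp4a gene. Reads limit Cyp4a32, with 44 to 165 per library, and Cyp4a14, with 34 to 529.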
